A study of Mus musculus with 2 samples.

Results

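The genes described are the Slit ligands Slit1, Slit2 and Slit3, the Slit receptors Robo1 and Robo2, and the netrin receptors Dcc, Unc5b, Unc5c and Unc5d. They were chosen by name, 9 of the 30223 genes in the deposited table, and all 9 were found there. The cells came from the hippocampus of C57Bl.6/J mice that were either wild-type controls or homozygous for the edited allele Pigv341E of Pigv, an enzyme of glycosylphosphatidylinositol anchor synthesis. Neither the sex nor the age of the mice was given in the labels. For each genotype, the cells of 8 hippocampi from 4 mice, freed by mechanical dissociation at low temperature, went together into 1 droplet library, so each genotype has 1 library and no replicate. Genotype and library therefore cannot be told apart. Every difference below is a description without a test, and every interval covers counting error only.

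Slits are large secreted glycoproteins that bind Robo receptors on growth cones and migrating neurons and mostly repel them. Netrin-1 acts through Dcc, which mediates attraction, and through Unc5 receptors, which mediate repulsion either alone or together with Dcc. In the adult brain several of these genes stay active in neurons, where they have been linked to synapses and axon maintenance, and Dcc and Unc5 receptors are also found on oligodendrocytes and their precursors.

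There were 7094 wild-type and 8836 knock-in cells, and 28 barcodes occurred in both libraries. The level of Pigv was 0.0886 (wild-type) and 0.1004 (knock-in) per 10000, which does not test for the edited allele. Clustering without the 9 genes gave 41 clusters, of which 32 were given a class from marker genes and 9, with 1046 cells, were left unnamed. Of 20 classes, 16 had at least 50 cells in each library and were compared. Cells had a median of 3122 (wild-type) and 3736 (knock-in) genes above 0. A level is the sum of a gene's deposited values over the cells of a class per 10000 of all values in those cells, and it is given below as wild-type then knock-in. The narrow range of totals per cell is that of depth-corrected values, in which a 1 need not be an observed molecule, so a cell was counted as holding a gene at a value of 2 or more.

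Microglia-like cells were taken as the measure of background for these neuronal and glial guidance genes. A lack of expression there was assumed and not tested. Microglia-like cells were not the lowest class for every gene, and ranked 7 of 16 for Slit1 and for Slit3. Their level of Dcc was 3.48 and 2.72 per 10000, and 55.8% and 38.8% of them had a Dcc value of 2 or more, at a median of 2498 and 3017.5 genes per cell. Within that class, the P2ry12-led cluster 31 had Dcc at 1.10 and 1.29, while the Cst3-led cluster 4 had it at 6.53 and 5.19. The other genes except Unc5b differed between these clusters in the same direction, Slit1 from 0.179 and 0.307 in cluster 31 to 2.11 and 1.84 in cluster 4, and Slit3 from 1.11 and 1.13 to 6.47 and 6.46. Robo1 ran from 0.524 and 0.670 to 3.10 and 2.74, Unc5c from 0.707 and 0.624 to 4.32 and 3.22, and Unc5d from 0.121 and 0.269 to 1.04 and 0.595. The microglia-like class values given beside each gene below are therefore a mean over unlike clusters and not a threshold, and levels within these ranges were not read as expression. Such levels do not show that a gene is absent either. Doublets were called in 2.07% and 7.18% of microglia-like cells, and their part in this background was not tested.

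A pair of the Slit genes host the copies of a microRNA, miR-218, that is known to act on Robo1 and Robo2 transcripts, and its sequence is shown for that reason. Mir218-1 lies in an intron of Slit2 (GRCm38, chr5:47983138-48307733, plus strand) and Mir218-2 in an intron of Slit3 (chr11:35121224-35708507, plus strand). Both give the same 5p arm, at chr5:48223966-48223986 and chr11:35616840-35616860, and different 3p arms. The mature sequences, from RefSeq on GRCm38.p6, are printed 5′ to 3′ with the seed (bases 2 to 8) in capitals.
mmu-miR-218-5p: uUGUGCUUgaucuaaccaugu
mmu-miR-218-1-3p: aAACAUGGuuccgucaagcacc
mmu-miR-218-2-3p: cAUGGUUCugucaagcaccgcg
The exact 7-base match to the 5p seed, AAGCACA on the transcript strand only, was searched in the 3′ UTRs of GENCODE M21 transcripts, UTRs of at least 100 bases. It was present in 3 of the 9 genes, Robo1, Robo2 and Slit2, and in 16.1% of the 17148 genes with such a UTR, whose lengths differ. Windows of 30 bases around the match are printed on the strand of the gene, with the match in capitals: Robo1 at chr16:73045336-73045365 (plus), Robo2 at chr16:73895348-73895377 and chr16:73893022-73893051 (minus), and Slit2 at chr5:48304531-48304560 and chr5:48306834-48306863 (plus).
Robo1: ttttggttttaaAAGCACAatcactaaact
Robo2 upstream match: ttatttggtgatAAGCACAaatctctactc
Robo2 downstream match: cacggcagacccAAGCACAgcttctttcag
Slit2 upstream match: caatactagcagAAGCACAtctacaagagc
Slit2 downstream match: taattattagcaAAGCACAtaaattaaagg
A match is a description of letters and not a shown site, and mature microRNAs were not measured by this assay. The host transcripts and the transcripts with matches were measured, and their levels follow. Of the remaining genes, Slit1 lies at chr19:41600257-41743665 (minus), Robo1 at chr16:72308306-73046095 (plus), Robo2 at chr16:73891839-74411825 (minus), Unc5b at chr10:60762593-60831581 (minus), Unc5c at chr3:141465216-141834924 (plus) and Unc5d at chr8:28646717-29219636 (minus). Slit2, Slit3, Robo1, Robo2 and Unc5c overlap annotated genes on the other strand, and whether reads were counted by strand is not given in the sources used here.

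Slit1 was highest in the dentate and CA classes. In the dentate granule class its levels were 5.56 and 5.12 per 10000, against 5.44 and 4.76 in CA3-like cells and 3.53 and 2.85 in CA1-like cells. The ranges of the first 2 classes overlapped, and CA3-like cells were the higher of them when cells were thinned to 1000 or clustered on 15 principal components. In subiculum-like cells Slit1 was at 0.411 and 0.437, against 1.07 and 0.943 in microglia-like cells. The share of cells at 2 or more was 89.4% and 90.5% in the dentate class, 80.8% and 74.1% in CA1-like cells, 9.79% and 11.2% in subiculum-like cells and 7.83% and 11.6% in microglia-like cells. The subiculum level lay between those of microglia-like clusters 31 and 4, while the dentate, CA3 and CA1 levels lay above both clusters in both libraries.

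Slit2 was highest in CA3-like cells under all 9 settings tried, at 5.92 and 5.42 per 10000. Subiculum-like cells came next at 2.61 and 2.88, without overlap. CA1-like cells were at 0.583 and 0.886, dentate cells at 0.829 and 0.570, and microglia-like cells at 0.191 and 0.263. Of CA3-like cells, 78.8% (95% exact Clopper-Pearson interval 73.9 to 83.2%) and 79.8% (75.4 to 83.8%) had a value of 2 or more, against 20.1% and 11.9% in the dentate class and 4.14% and 5.47% in microglia-like cells. The highest Slit2 levels of any cluster with at least 20 cells in each library were in clusters left unnamed. Cluster 26, led by Slc47a1 and Bnc2, had 14.6 and 9.98 over 24 and 87 cells. Cluster 32, led by Htr2c and Otx2os1, had 6.55 and 5.89 over 40 and 21 cells.

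Slit3 ran across the principal neuron classes except the other pyramidal neuron-like one. The dentate granule class was highest, at 22.04 and 19.3 per 10000, followed by CA1-like cells at 17.5 and 16.2, without overlap of the libraries' ranges. Subiculum-like cells at 12.4 and 13.7, CA3-like cells at 12.7 and 11.1 and immature neuron-like cells at 13.7 and 9.58 overlapped in the order. Cortical excitatory-like neurons had 11.3 and 10.7. In the wild-type library the summed subiculum markers of this class exceeded its cortical ones, as given below, which limits its name. Interneuron-like cells had 1.51 and 1.47 and other pyramidal neuron-like cells 1.74 and 1.465, against 3.32 and 2.92 in microglia-like cells. The levels of both classes lay between those of microglia-like clusters 31 and 4. The dentate, CA1, CA3, subiculum and cortical levels lay above both clusters.

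Among the classes, cells holding all 3 ligands were most common in CA3-like cells. Slit1 and Slit3 were found together in 93.9% and 94.0% of these cells. Whether the 3 genes coincided beyond their separate shares was not tested. Values of 2 or more for Slit1, Slit2 and Slit3 in the same cell were found in 74.0% of wild-type and 74.4% of knock-in CA3-like cells. The shares were 17.7% and 10.7% in the dentate class, 11.4% and 14.2% in CA1-like cells and 0.739% and 1.03% in microglia-like cells.

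**Figure D1:**
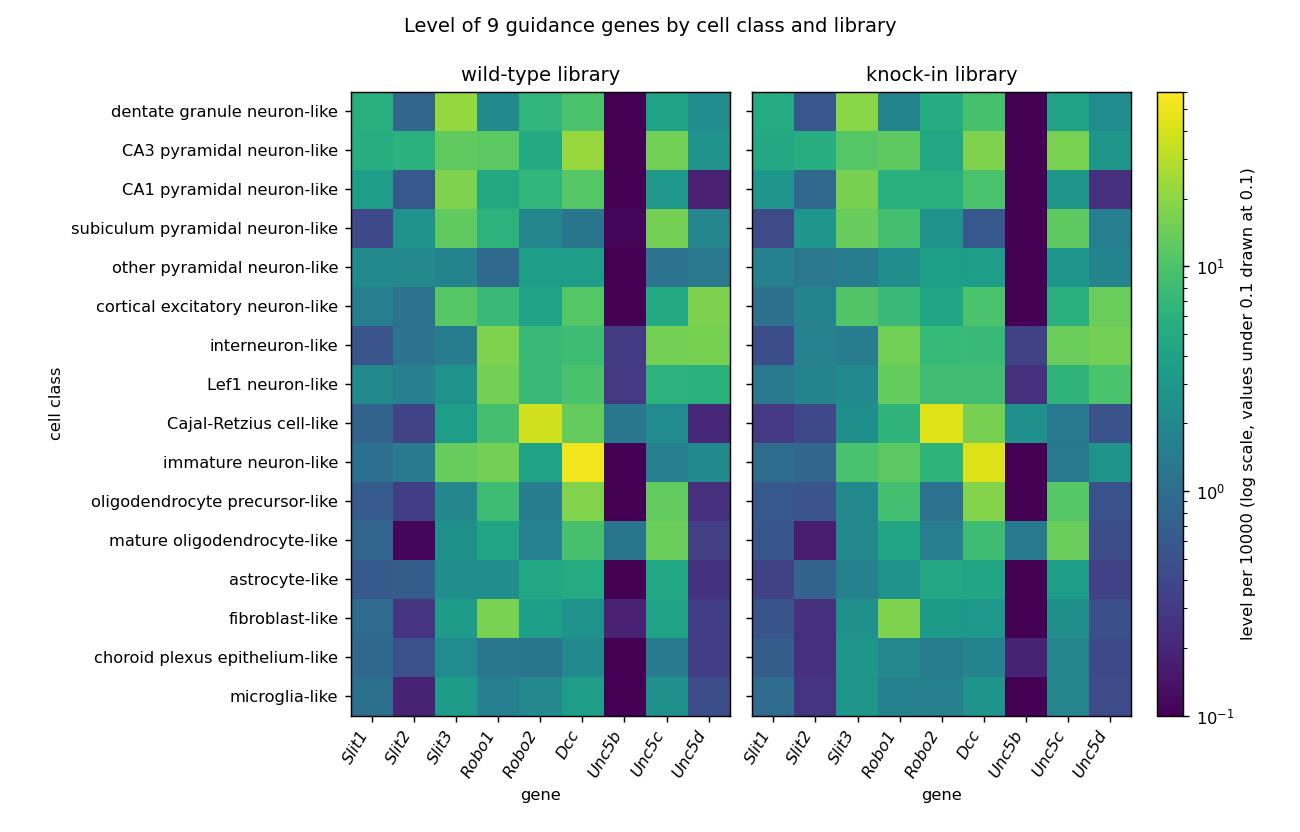
Level per 10000 (colour, log scale) of the 9 genes in the 16 cell classes with at least 50 cells per library, wild-type library on the left and knock-in library on the right. Colours compare classes within a gene, since gene length was not corrected; Robo2 in Cajal-Retzius cell-like cells (37.8 and 43.5) and Dcc in immature neuron-like cells (52.8 and 43.2) are the brightest cells of their columns in both libraries.

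Robo1, a Slit receptor with an immunoglobulin-rich extracellular part, was shared by unrelated classes. Its levels were 16.6 and 17.3 per 10000 in fibroblast-like cells, 17.5 and 15.3 in interneuron-like cells, 15.6 and 13.3 in neurons marked by Lef1, 15.7 and 11.9 in immature neuron-like cells and 11.9 and 12.3 in CA3-like cells. Each of these neighbours overlapped the next in the range of its libraries. Across the dentate, CA1 and subiculum classes Robo1 ran in the opposite order to Slit3. It was at 2.08 and 1.81 in dentate cells, near the microglia-like 1.59 and 1.66, at 4.90 and 5.80 in CA1-like cells and at 6.25 and 9.21 in subiculum-like cells. Immature neuron-like cells were high in both genes, and over the 32 clusters described below r of Slit3 and Robo1 was 0.03. The share of cells at 2 or more was 89.9% and 93.1% in fibroblast-like cells, and 44.4% and 41.9% in dentate cells. In microglia-like cells, 198 of 677 and 158 of 878 cells had such a value.

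Robo2, the second receptor, was concentrated in Cajal-Retzius cell-like cells, the Reln-positive neurons of the outermost layer. All 63 wild-type cells (95% interval from 94.3%) and all 100 knock-in cells (from 96.4%) of that class had a Robo2 value of 2 or more, with levels of 37.8 and 43.5 per 10000. The next class, neurons marked by Lef1, had 7.43 and 8.53, without overlap. Interneuron-like cells had 7.62 and 7.33, CA1-like cells 6.78 and 5.69, and dentate cells 6.78 and 5.31, the last 2 overlapping. Microglia-like cells had 2.02 and 1.64, and oligodendrocyte precursor-like cells 1.47 and 1.08. In Cajal-Retzius cell-like cells the ligands Slit1 (0.769 and 0.292) and Slit2 (0.375 and 0.409) were low.

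Dcc, the receptor of netrin-1 that mediates attraction, was highest in immature neuron-like cells, the Igfbpl1- and Sox11-positive class, at 52.8 and 43.2 per 10000. CA3-like cells followed at 22.6 and 17.5 and oligodendrocyte precursor-like cells at 17.98 and 18.2, and these overlapped. Cajal-Retzius cell-like cells had 13.3 and 16.3, CA1-like cells 11.2 and 9.89, and dentate cells 9.71 and 9.26. Subiculum-like cells had 1.20 and 0.582, against 3.48 and 2.72 in microglia-like cells and 1.10 and 1.29 in their cluster 31. The immature class was widened to 210 and 203 cells when 15 principal components were used, and Dcc was then 22.3 and 24.0 in it. Mature oligodendrocyte-like cells had 9.21 and 8.14, lower than the precursors.

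Unc5b was at a low level in most classes. It reached 1 per 10000 in 2 of them, Cajal-Retzius cell-like cells at 1.22 and 2.47 and mature oligodendrocyte-like cells at 1.19 and 1.34. In the latter, 447 of 1490 and 468 of 1478 cells (31.7%) had a value of 2 or more, against 0.952% and 0.664% of the precursors and 2.22% and 1.94% of microglia-like cells. In the class called other pyramidal neuron-like no cell reached 2, where 3 cells would be 2.86% of 105 wild-type and 1.34% of 224 knock-in cells and the exact interval reaches 3.45% and 1.63%. These limits are for cells at that value and not for cells that express the gene. Of Cajal-Retzius cell-like cells, 14 of 63 wild-type ones (22.2%, interval 12.7 to 34.5%) had such a value, and 55 of 100 knock-in ones (55.0%, 44.7 to 65.0%).

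Unc5c was held at similar levels by classes of different lineages. It had 15.2 and 16.7 per 10000 in CA3-like cells, 15.7 and 14.1 in interneuron-like cells, 14.3 and 14.3 in mature oligodendrocyte-like cells, 15.7 and 12.3 in subiculum-like cells and 12.96 and 11.2 in oligodendrocyte precursor-like cells. Each overlapped the next in order. Dentate cells had 4.05 and 4.06 and CA1-like cells 3.10 and 2.96, against 2.46 and 1.82 in microglia-like cells. The CA1 levels and the wild-type dentate level lay between those of microglia-like clusters 31 and 4. CA3-like cells thus lay above the dentate and CA1 classes for Unc5c as for Slit2 and Robo1.

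Unc5d was highest in interneuron-like cells, at 16.1 and 15.7 per 10000, and in cortical excitatory-like neurons, at 17.1 and 13.8, which overlapped. The limit on the name of the cortical class applies here too. Neurons marked by Lef1 had 5.91 and 9.86. CA3-like cells had 2.69 and 2.96 and dentate cells 2.25 and 2.23. CA1-like cells had 0.178 and 0.235, against 0.448 and 0.444 in microglia-like cells, with 2.05% and 3.02% of cells at 2 or more.

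The share of cells with both Dcc and Unc5c at 2 or more differed between classes. In CA3-like cells, 98.4% (96.3 to 99.5%) of wild-type and 96.7% (94.4 to 98.3%) of knock-in cells had both Dcc and Unc5c at 2 or more. The same was found in 93.3% and 94.0% of oligodendrocyte precursor-like cells. In immature neuron-like cells, 66.2% (53.7 to 77.2%) and 69.5% (59.2 to 78.5%) had Dcc without Unc5c, and 0 of 68 (interval up to 5.28%) and 3 of 95 cells had Unc5c without Dcc. Of subiculum-like cells, 74.8% (66.9 to 81.7%) and 69.0% (62.1 to 75.4%) held Unc5c without Dcc. The gene not found was at a low level in each of these classes. Unc5c was at 1.57 and 1.34 per 10000 in immature neuron-like cells, and Dcc at 1.20 and 0.582 in subiculum-like cells. Both genes were still found in 15 of 68 and 18 of 95 immature neuron-like cells. These shares therefore do not show that the genes fell in different cells. Mature oligodendrocyte-like cells held both in 72.3% and 66.5% of cells and Unc5c alone in 21.3% and 25.4%. In microglia-like cells both were found in 40.3% and 16.9%, Dcc alone in 105 of 677 and 193 of 878 cells and Unc5c alone in 7.24% and 10.7%.

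**Figure D2:**
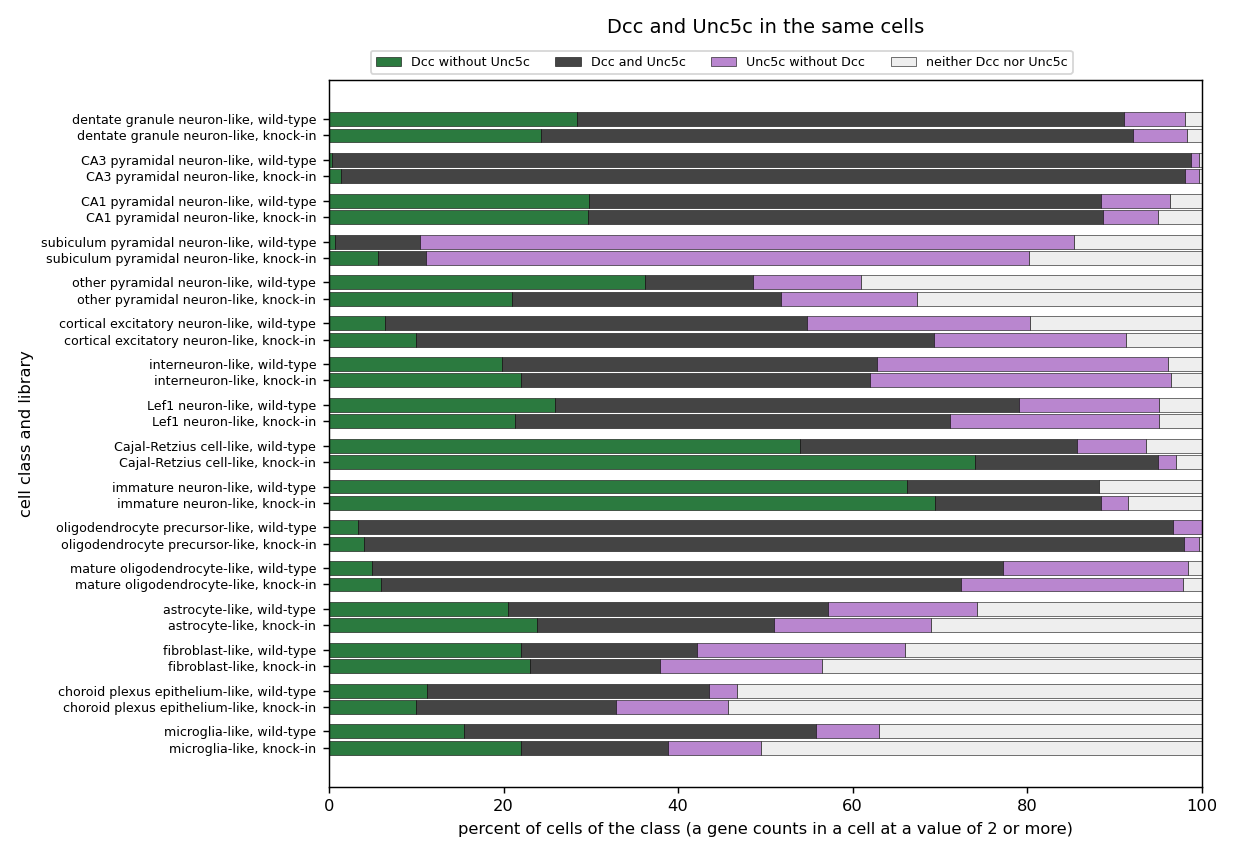
Percent of cells (x axis) of each class and library (y axis) with Dcc alone, Dcc and Unc5c, Unc5c alone or neither, a gene counting at a value of 2 or more. CA3-like and oligodendrocyte precursor-like bars are almost all dark (both genes, 93.3% or more), immature neuron-like bars are mostly green (Dcc alone, 66.2% and 69.5%) and subiculum-like bars mostly violet (Unc5c alone, 74.8% and 69.0%).

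Several of the genes also differed between clusters of a class in the same direction in both libraries, and those given here were chosen after their values were seen. CA1-like cells fell mainly into cluster 2, led by Pde11a, and cluster 6, led by 4921539H07Rik. Slit2 was 1.30 and 1.77 per 10000 in cluster 2 and 0.287 and 0.375 in cluster 6, Robo1 was 6.46 and 7.47 against 4.37 and 4.87, and Unc5d was 0.407 and 0.488 against 0.0911 and 0.0950. Robo2 ran the other way, at 6.32 and 4.70 in cluster 2 against 6.99 and 6.30 in cluster 6. The Unc5d values lay within or below the range of the microglia-like clusters, and those of Slit2 in cluster 6 within it.

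Among astrocyte-like cells, cluster 22, led by Myoc, Aqp4 and Gfap, differed from the larger cluster 21, led by Rgs20 and Slc1a2. Slit2 was 1.85 and 3.15 in cluster 22 against 0.436 and 0.364 in cluster 21. Unc5c was 9.77 and 9.09 against 3.68 and 2.75. Robo2 was 7.23 and 9.28 against 4.16 and 4.06. These 3 genes were higher in cluster 22, of 90 wild-type and 108 knock-in cells, in each library. Doublets were called in 8.59% of cluster 22 and 1.6% of cluster 21, and their part in the difference was not tested. The Unc5c levels of cluster 21 lay within the range of the microglia-like clusters.

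Mature oligodendrocyte-like cells differed in Robo1. Cluster 12, with Anln and Enpp6 among its leading genes, had 7.54 and 6.91, while cluster 9, with Slc13a1 and Tspan2 among its leading genes, had 2.61 and 2.55, and Unc5c differed less, at 14.0 and 12.8 against 15.1 and 17.0. Of the unnamed clusters, cluster 37, led by Vwc2l and Cntn6, had Dcc at 32.3 and 24.0, and cluster 39, with Trpc7 and Csf2rb2 among its leading genes, had Dcc at 20.0 and 17.4 and Robo1 at 13.8 and 16.5. Cluster 27, with Sgcz and Vwc2l among its leading genes, had Unc5d at 16.2 and 15.4 with Dcc at 0.979 and 1.30. At the higher resolution, a Reln- and Kit-led group of 17 and 32 interneuron-like cells had Unc5c at 32.2 and 29.2 and Robo2 at 16.5 and 16.8, against 13.7 and 11.9 and 6.50 and 5.98 in the main interneuron-like group.

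**Figure D3:**
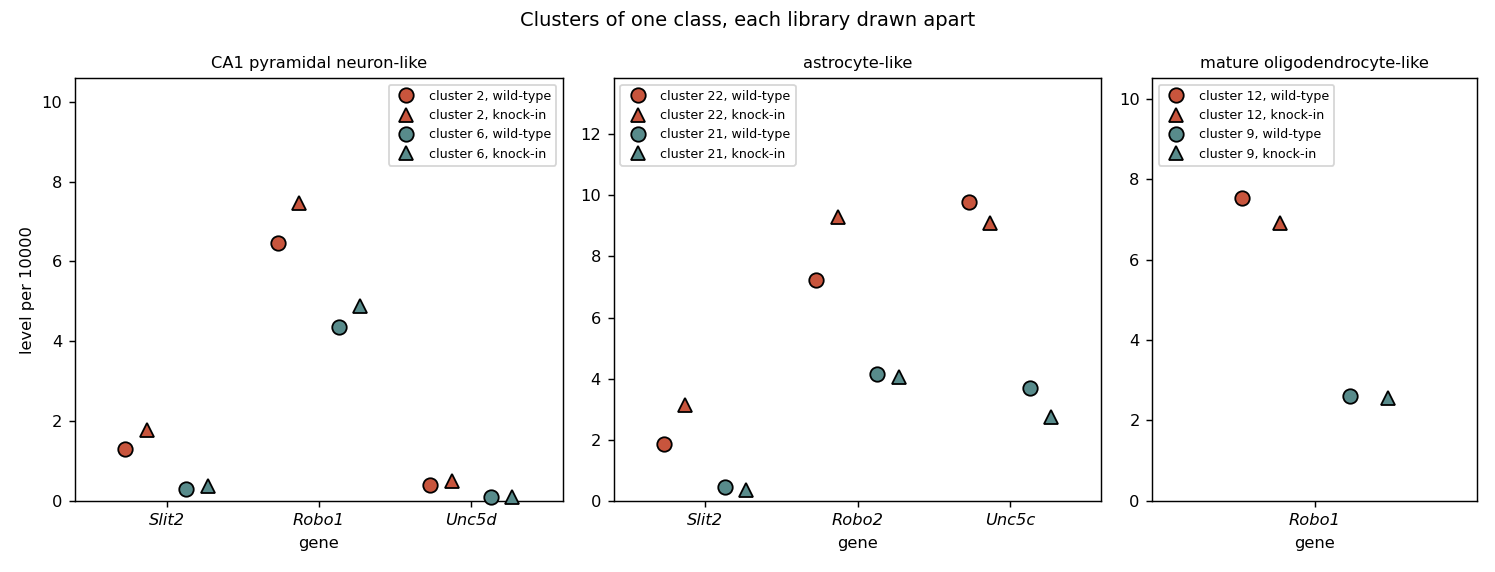
Level per 10000 (y axis) of Slit2, Robo1, Robo2, Unc5c and Unc5d in pairs of clusters of 3 classes, circles for the wild-type and triangles for the knock-in library. The genes drawn are Slit2, Robo1 and Unc5d for CA1, Slit2, Robo2 and Unc5c for astrocytes and Robo1 for oligodendrocytes, chosen for their higher level in the red cluster after the values were seen. Their red symbols lie above the blue-green ones, for example Robo1 in mature oligodendrocyte-like cells at 7.54 and 6.91 against 2.61 and 2.55.

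Between genotypes the levels of the 9 genes over all cells lay close together. Slit1 was 2.58 in wild-type and 1.98 in knock-in cells, Slit2 0.968 and 1.07, and Slit3 10.1 and 8.38. Robo1 was 4.75 and 5.42 and Robo2 4.68 and 4.36. Dcc was 9.74 and 8.49, Unc5b 0.305 and 0.302, Unc5c 7.02 and 6.61, and Unc5d 2.09 and 2.80. The log2 ratio of the knock-in to the wild-type level (0.1 added) lay between -0.36 for Slit1 and 0.41 for Unc5d. None of the 8 genes that met the limits (at least 1 per 10000 and 10% of cells above 0 in 1 library) was past a 2-fold difference, where 0.289% of all genes at the limits were. The median log2 ratio of the members was -0.09 and that of all 2075 genes at the limits -0.08. With the same cluster weights in both libraries the ratio of Robo1 was 0.01, that of Slit1 -0.20, that of Slit2 0.00 and that of Unc5b 0.10. That of Unc5d was then -0.03, so its direction over all cells turned.

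Within classes, 105 of the 144 pairs of gene and class met the limits, and 2 of them (1.905%) were past 2-fold, where 0.941% of all pairs of gene and class were. Both were in the class called other pyramidal neuron-like, at levels within the ranges of the microglia-like clusters. Of all member pairs, 12 (11.4%) were past 1.5-fold, where 4.36% of all pairs were, and in 7 of the 12 the knock-in level was the higher. These counts share cells and libraries between pairs, and nothing particular to the 9 genes is read from them. No pair past 1.5-fold was in the CA1, CA3, dentate granule, interneuron, astrocyte, microglia, oligodendrocyte precursor or mature oligodendrocyte classes. The share of all genes past 1.5-fold was 1.81% in CA1, 3.01% in CA3, 1.16% in dentate granule, 1.95% in interneuron, 2.33% in astrocyte, 1.11% in microglia, 1.54% in precursor and 1.93% in mature oligodendrocyte classes. It was higher in the classes that held the 12 pairs, at 10.3% in Cajal-Retzius, 8.2% in choroid plexus, 7.69% in immature neuron, 7.6% in cortical excitatory, 6.72% in other pyramidal, 5.47% in Lef1 neuron, 4.78% in fibroblast and 4.5% in subiculum classes. Past 2-fold the share was 0.853% in CA1, 1.26% in CA3, 0.301% in dentate granule, 0.584% in interneuron, 0.693% in astrocyte, 0.371% in microglia, 0.399% in precursor and 0.458% in mature oligodendrocyte classes. It was 1.69% in Cajal-Retzius, 1.44% in choroid plexus, 0.955% in immature neuron, 1.63% in cortical excitatory, 1.21% in Lef1 neuron, 0.677% in fibroblast and 1.26% in subiculum classes. Of the 105 pairs, 78 kept their direction in all of the alternatives tried for them.

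**Figure D4:**
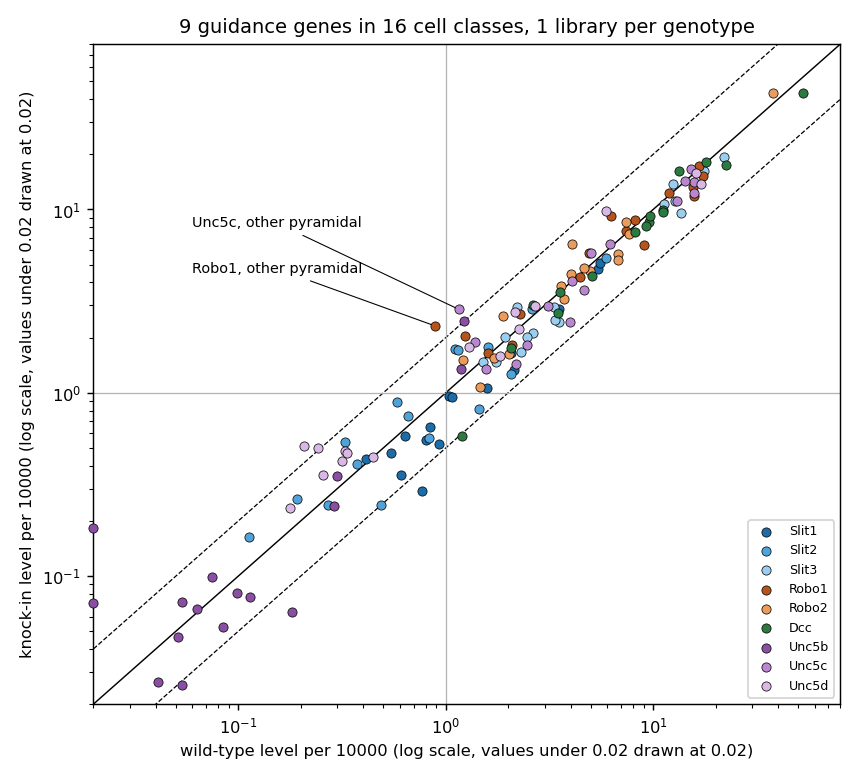
Level per 10000 in the knock-in library (y axis, log scale) against the wild-type library (x axis, log scale); each point is 1 gene in 1 of 16 classes, the solid line marks equal levels, the dashed lines a 2-fold difference without the added 0.1, and the grey lines 1 per 10000. Robo1 (0.884 and 2.32) and Unc5c (1.15 and 2.86) in other pyramidal neuron-like cells lie above the upper dashed line, Unc5b in Cajal-Retzius cell-like cells (1.22 and 2.47) lies at it, Dcc in subiculum-like cells (1.20 and 0.582) lies below the lower one, and points below 1 scatter more widely.

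Among the ligands, Slit1 was at a lower knock-in level in 8 of the 8 classes that met the limits, with log2 ratios from -0.65 in neurons marked by Lef1 to -0.10 in immature neuron-like cells. The 8 include the microglia-like class itself (1.07 and 0.943). Only the dentate, CA3 and CA1 levels lay above those of both microglia-like clusters in both libraries. Of 1870 genes at the limits in at least 8 classes, 4.06% were lower in every such class, and 61.1% of all pairs of gene and class were lower. The direction of Slit1 held in all alternatives in 4 of the 8 classes, CA1, dentate granule, cortical excitatory and other pyramidal. After thinning it was 0.06 in CA3-like cells and 0.14 in neurons marked by Lef1. Slit3 was lower in 13 of 16 classes, the microglia-like class among them (-0.18). Its ratios ran from -0.51 in immature and Cajal-Retzius cell-like cells to 0.40 in choroid plexus-like cells. The Slit3 levels of the Cajal-Retzius and choroid plexus classes lay within the range of the microglia-like clusters. After thinning, their ratios were -0.11 and -0.08. Slit2 was lower in immature neuron-like cells, at 1.45 and 0.817 (-0.75, and 0.495 with 15 principal components), and higher in cortical excitatory-like neurons, at 1.11 and 1.74. The cortical cells of the libraries lay in different groups at the higher resolution. Slit2 was lower in the groups of 21 and 148 cells (3.65 and 3.31) and of 19 and 236 cells (1.52 and 1.25), and higher in those of 98 and 121 cells (0.609 and 1.09) and of 19 and 44 cells (0.368 and 0.894). The summed cortical markers of the class were 11.05 and 19.6 per 10000 and its summed subiculum markers 27.9 and 13.01, and their part in the result was not tested.

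Among the receptors, Dcc was lower in the knock-in library in 12 of 16 classes, where 61.1% of all pairs of gene and class were lower. The 12 include the microglia-like class itself (3.48 and 2.72), and astrocyte-like and choroid plexus-like cells, whose levels lay within the range of its clusters. In CA3-like cells it was 22.6 and 17.5 (log2 ratio -0.36, and between -0.40 and -0.34 over the alternatives). In subiculum-like cells, where its level was close to that of microglia-like cluster 31, the ratio was -0.93 and ranged from -1.65 to -0.33. Robo1 was higher in 10 of 16 classes, the microglia-like class among them (0.05), with 6.25 and 9.21 in subiculum-like cells (0.55, from 0.33 to 0.63). Robo2 was higher in 8 classes and lower in 8, and its ratio in Cajal-Retzius cell-like cells was 0.20. Unc5b in Cajal-Retzius cell-like cells was 1.22 and 2.47, a ratio of 0.96 just under the limit of 1, and from 0.46 to 1.24 over the alternatives. That class held 63 and 100 cells, its median number of genes was 2586 and 2884.5, and its summed marker level was 86.7 and 114 per 10000. Unc5d was 5.91 and 9.86 in neurons marked by Lef1, a ratio of 0.73, over 81 and 225 cells.

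**Figure D5:**
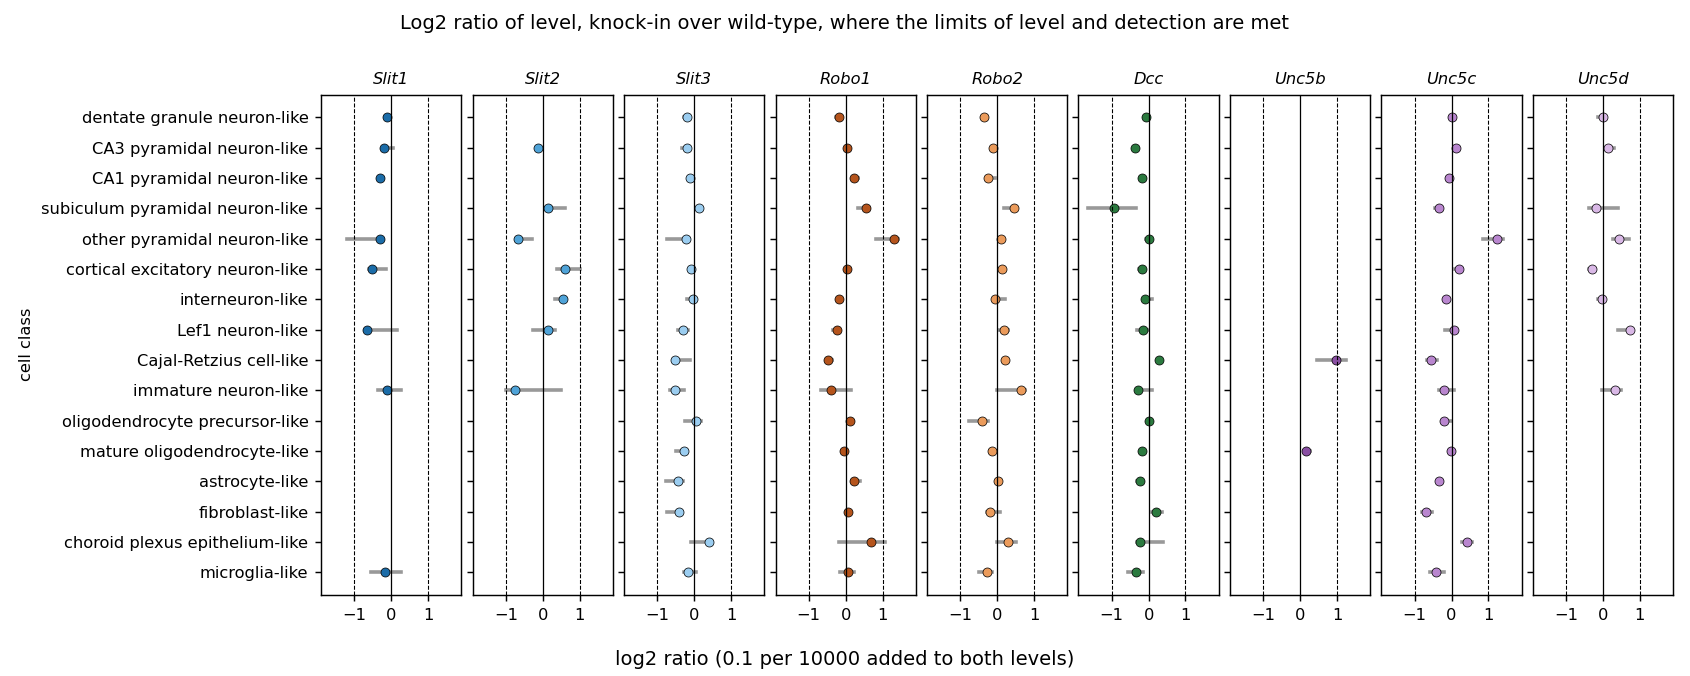
Log2 ratio of level, knock-in over wild-type (x axis), of each gene in each class (y axis) that met the limits; points are the values reported, grey bars the range over the alternatives tried, and dashed lines a 2-fold difference. Points past a dashed line are Robo1 (1.30) and Unc5c (1.24) in other pyramidal neuron-like cells, whose levels lay within the ranges of the microglia-like clusters. The 8 Slit1 points, that of microglia-like cells among them, all lie left of 0.

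In the other pyramidal neuron-like class, Robo1 was 0.884 in wild-type and 2.32 in knock-in cells (log2 ratio 1.30), and Unc5c 1.15 and 2.86 (1.24). These class levels lay within the ranges of the microglia-like clusters given above, so they were not read as expression. Of all genes at the limits in that class, 1.43% were past 2-fold. The class, cluster 8, held 105 and 224 cells and was clustered apart after these values had been seen, without the 9 genes and their pathway lists, which gave 8 groups. A Col6a1- and Syt6-led group had 8 wild-type and 53 knock-in cells, with Robo1 at 1.99 and 5.63. An Nhs- and Atp8b1-led group had 0 wild-type and 49 knock-in cells, with Unc5c at 7.42 in the latter. Over the 4 groups with at least 10 cells in each library, given the same weights in both, Robo1 was 0.855 and 1.04 (0.26) and Unc5c 1.33 and 1.73 (0.35). Single groups among these 4 did differ by more, Robo1 at 1.57 and 3.70 in a group of 10 and 16 cells and Unc5c at 0.478 and 1.70 in a group of 17 and 20 cells. That last group, led by Htr2c and Greb1l, held Slit2 at 9.57 and 8.46. The part of the numbers of cells per group in the class ratios was not tested further.

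The genes of the pathway, the 9 members included, were counted in 4 lists. Of 15 ligands of these receptors, 6 met the limits over all cells and none was past 2-fold, with a median log2 ratio of -0.14. Of 12 receptors, 8 met them and none was past 2-fold (-0.10). Of 7 co-receptors and matrix partners, 1 met them, at 0.01. Of 25 cytoplasmic effectors, 20 met them and 1 was past 2-fold lower (median -0.14). The median of all genes at the limits was -0.08, and 0.289% of them were past 2-fold. The 1 gene was Abl1, a kinase that acts downstream of Robo, at 8.995 and 1.29 over all cells (-2.71) and past 2-fold lower in 16 of 16 classes. No other gene of the lists was past the limit over all cells. Within classes, Nell1 and Pak1 were past it lower and Flrt2 and Cap2 higher, in 1 class each, beside Robo1 and Unc5c as given above. Of all pairs of gene and class, 0.941% were past it.

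Ntn1, the netrin ligand of Dcc and the Unc5 receptors, was scarce over all cells, at 0.134 and 0.177 per 10000, and is given here although it was chosen after its values were seen. Its highest class was oligodendrocyte precursor-like cells, at 2.04 and 2.38. Nell2, a secreted ligand of Robo3, was at 4.74 and 4.27 over all cells and highest in CA3-like cells at 8.62 and 7.92. Its relative Nell1 was at 2.17 and 1.99, highest in CA1-like cells at 8.74 and 7.38. Flrt2, a membrane ligand of Unc5 receptors, was at 1.20 and 1.5 and highest in fibroblast-like cells at 6.48 and 7.26. Neo1, the relative of Dcc, was at 1.78 and 1.66, highest in immature neuron-like cells at 4.30 and 4.504, as Dcc was. The netrin-binding Dscam was at 6.49 and 6.07, highest in oligodendrocyte precursor-like cells at 47.3 and 42.3, and its relative Dscaml1 at 6.85 and 6.28, highest in the same class at 16.5 and 15.5.

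Likeness of pattern was described over 32 clusters with at least 25 cells in each library, as Pearson's r of log levels over 5702 genes, with no p-value, since clusters share their libraries and their depth. Among members, Slit1 and Slit3 were most alike (r = 0.77), followed by Slit2 and Unc5d (0.54) and Robo1 and Dcc (0.53), and Slit2 and Unc5b were the least alike (-0.47). The genes most like Slit1 were Ryr2 (0.91), Wipf3 (0.91) and Ak5 (0.90), and those most like Slit3 were Nell2 (0.91), Wipf3 (0.90) and Add2 (0.90). Slit2 was nearest to Nrip3 (0.76), a marker used to name the CA3 class, Adam11 (0.76) and Sdk2 (0.76). Robo1 had no close likeness, with Col11a1 (0.63), A230057D06Rik (0.63) and Grip1 (0.62). Robo2 was nearest to Ccdc148 (0.81), March4 (0.79) and Upp2 (0.77).

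Dcc was nearest to Kif3c (0.66), Akap6 (0.65) and Depdc5 (0.63). Unc5b was nearest to Cpm (0.87), Gm38642 (0.86) and Tspan2 (0.83). Unc5c was nearest to Acyp2 (0.77), Clasrp (0.75) and Magi2 (0.71). Unc5d was nearest to Galnt14 (0.85), Kcnc1 (0.84) and Vwa5b2 (0.83).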

How the data were processed

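Cells of 2 libraries, 1 per genotype, were prepared with the Chromium v3 chemistry. The authors deposited 1 table of 30223 genes by 15930 cells whose whole-number values were treated as a score, since totals per cell lay between 4846 and 14501, as depth correction gives. Seurat 3.0.0 and GRCm38 are named in the submitters' processing notes. Raw depth per cell is unknown, and the aligner and cell filter are not given in the sources used here. No count model was used and no test was possible.

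Clustering used scanpy 1.11.5 with igraph 0.11.9 and scikit-learn 1.9.0 in Python 3.11.15, on 2000 variable genes without the 9 members, the pathway lists and sex-linked genes, with 30 principal components, 15 neighbours and Leiden resolution 1.5. A marker counted where at least 25% of cells were above 0 at 1.5-fold or more. The class with the most markers, at least 3, named a cluster, which stayed unnamed where another class competed or 3 or more of its 10 leading genes were mitochondrial. This naming rule was set after the clusters were seen. Names rest on markers alone and end in "-like". Doublets were kept: Scrublet with an expected rate of 6% called 0.860% of wild-type and 2.37% of knock-in cells.

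The size rule was a log2 ratio of at least 1 in size (0.1 added), at least 1 per 10000 in 1 library and at least 10% of its cells above 0. It was run on simulated counts with planted changes, drawn without any spread between mice or libraries. That run cannot show how the rule performs with 1 library per genotype. Members were named by rule, pathway genes where past the size rule or, for ligands and receptors, at 0.5 per 10000, and the 3 genes most like each member. Cluster and group genes were named to say what a cluster is. The split of the other pyramidal class into groups (1000 variable genes, 10 principal components, resolution 0.3) was added after seeing the data. The members and lists were chosen with earlier results of these data known. The genes' coordinates are those of GENCODE M21.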

Additional observations from a re-analysis of the deposited data

How the results depend on the processing

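No paired analysis was possible because each genotype is 1 library. The count of gene and class pairs past 2-fold, 2 as reported, was 4 with values of 1 set to 0, 4 with 0.02 added in place of 0.1, 4 after thinning each cell to 1000, 0 with 1 added and 0 with 15 principal components, where the other pyramidal class was not named. At 1.5-fold it was 12. The count of all genes past 2-fold over all cells, 6 as reported, was 18 with no minimum level.

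With 1 added, Robo1 and Unc5c in other pyramidal neuron-like cells were at 0.82 and 0.84. Pairs newly past 2-fold were Unc5b in Cajal-Retzius cell-like cells (1.24 with values of 1 set to 0, 1.01 without called doublets, 1.00 with 0.02 added), Robo1 in choroid plexus-like cells (1.06 with values of 1 set to 0), Slit2 in cortical excitatory-like neurons (1.01 with members kept for clustering), Slit1 in other pyramidal and choroid plexus-like cells (-1.19 and -1.05 thinned) and Dcc in subiculum-like cells (-1.02 with 0.02 added). The cause of these shifts was not tested. The equal weighting of groups within the other pyramidal class was chosen after seeing the data. Library depth is unknown, and values below about 1 per 10000 are near background. For several genes the background was higher, with microglia-like class levels of 3.48 and 2.72 for Dcc and 3.32 and 2.92 for Slit3. With 1 library per genotype no spread between mice can be given.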
